A study of Mus musculus with 4 samples.

Results

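A set of 10 genes that restrain Ras and MAP kinase signalling was followed across 4 mouse T cell libraries. They are the dual-specificity phosphatases Dusp1, Dusp2, Dusp4, Dusp5, Dusp6 and Dusp10, the Sprouty genes Spry1 and Spry2, the Sprouty-related Spred1 and the Ras GTPase-activating gene Rasal1. The 10 genes were found by symbol among 23259 named genes of the table on transduced T cells, and 9 of them among 10663 named genes of the table on regulatory T cells. Spry2 was not analysed in the latter, which lists genes above 1 FPKM (fragments scaled by transcript length and library size) in at least 1 library. The genes were chosen by symbol with results of these data known, and Rasal1 was selected on its FPKM in the 2 regulatory T cell libraries, so its difference there is a description.

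The first experiment compared splenic regulatory T cells (Treg) of Balb/c mice with a Foxp3-hCD2 reporter, which places human CD2 on cells that express Foxp3. Cells positive for human CD2 were purified from untreated mice or from mice given 3% dextran sulfate sodium (DSS), a polymer that injures the colon epithelium, in drinking water for 7 days. In the second, naive CD4 T cells from C57BL6 mice of wild-type genotype received a mock vector (mock cells) or a vector for the transcription factor Sox12 (Sox12 cells). Each group is 1 library, so no difference below has a replicate check and no p-value is given. The labels do not state the number or age of the mice, whether animals were pooled, the time after transduction or any selection of transduced cells.

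Stimulation through the T cell receptor loads Ras with GTP, and Ras starts the kinase chain Raf, MEK and ERK. ERK signalling induces several of its own inhibitors, which makes these genes a negative feedback loop. Dual-specificity phosphatases remove phosphate from the threonine and tyrosine of active MAP kinases, while Sprouty and Spred proteins act nearer to Ras. Ras GTPase-activating proteins return Ras to its inactive form.

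RefSeq promoter windows on GRCm38.p6 were at hand for 8 of the 10 genes, all but Dusp4 and Rasal1. The 250 bases before the start are printed for Spry1 and Spry2, the 2 Sprouty genes that went opposite ways with Sox12, and for Dusp1, the other gene with a motif match. Each reads 5′ to 3′ on the strand of its gene, and capitals mark the match.
Spry1, chr3:37639697-37639946, plus strand: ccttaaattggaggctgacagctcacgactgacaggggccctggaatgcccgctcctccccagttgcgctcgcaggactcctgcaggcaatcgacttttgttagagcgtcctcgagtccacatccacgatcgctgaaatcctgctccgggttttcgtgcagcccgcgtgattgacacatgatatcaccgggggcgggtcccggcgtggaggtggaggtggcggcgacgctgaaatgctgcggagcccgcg
Spry2, chr14:105896820-105897069, minus strand: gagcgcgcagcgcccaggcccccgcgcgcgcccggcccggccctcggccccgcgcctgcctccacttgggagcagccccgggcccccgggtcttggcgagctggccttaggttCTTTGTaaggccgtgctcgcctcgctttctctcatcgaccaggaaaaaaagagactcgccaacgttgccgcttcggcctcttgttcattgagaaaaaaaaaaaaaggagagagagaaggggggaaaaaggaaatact
Dusp1, chr17:26508473-26508722, minus strand: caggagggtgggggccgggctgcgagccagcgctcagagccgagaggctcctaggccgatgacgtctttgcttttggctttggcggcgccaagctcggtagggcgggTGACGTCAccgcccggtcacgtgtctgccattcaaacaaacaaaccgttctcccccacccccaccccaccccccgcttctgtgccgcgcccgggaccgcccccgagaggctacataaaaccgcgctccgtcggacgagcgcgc

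Both strands were searched for ACAAAG (the core bound by HMG-box factors), TGACGTCA (the cAMP response element), TGANTCA (AP-1) and CCGGAA (ETS). The capitals in Spry2 are ACAAAG on the opposite strand, at bases 114 to 119 of the window, and this motif was found in 16.5% of 32851 such windows. In Dusp1 the capitals are the palindromic TGACGTCA at bases 108 to 115, found in 1.55% of windows. No other match was found among the 8 windows, where TGANTCA has a background of 6.75% and CCGGAA of 12.0%. A match in letters does not show binding. The 8 windows had a median GC content of 63.2% and a median of 22 CpG, against 52.4% and 6 over all windows.

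As a check of the labels, Sox12 had 1.56 FPKM in mock cells and 829 FPKM in Sox12 cells. A value per gene does not separate vector from endogenous transcripts. Untreated and DSS Treg had 0.715 and 1.52 FPKM of Sox12. Foxp3 had 88.2 and 84.9 FPKM in untreated and DSS Treg, and 20.9 and 127 FPKM with the mock and Sox12 vectors. As background, of all genes that averaged 1 FPKM or more over both libraries (the filter), 66.1% were higher and 33.9% lower in DSS Treg. With the Sox12 vector 48.9% were higher and 51.1% lower. The 6 Treg markers that include Foxp3 summed to 782 and 765 FPKM in untreated and DSS Treg. Lower there were 4 of 6, among them Il2ra (82.0 and 67.2 FPKM), while Ctla4 and Tnfrsf18 were higher. In mock and Sox12 cells the same 6 markers summed to 1293 and 1090 FPKM. Of these, 4 of 6 were lower (background 51.1%), namely Folr4 (124 and 38.9 FPKM), Tnfrsf18 (329.8 and 183 FPKM), Il2ra and Ctla4. The 6 T cell markers summed to 1695 FPKM without DSS and 1699 FPKM after DSS, and to 1187 and 983 FPKM with the mock and Sox12 vectors. Some markers of other cells moved with the groups. Of the NK and CD8 T cell list the 4 genes listed for Treg were all lower in DSS Treg (background 33.9%, 30.1 and 26.0 FPKM in sum). Of the erythroid list 7 of 7 genes were higher in DSS Treg (background 66.1%, 407 and 625 FPKM in sum). Also higher in DSS Treg were the 4 of 5 basophil and mast cell genes past the filter (background 66.1%, all 5 summed to 7.82 and 28.8 FPKM). Of these 4, Gata2 (0.712 and 1.34 FPKM) passed only through its value in DSS Treg. The neutrophil and granule list was mixed (the 5 listed summed to 20.2 and 29.2 FPKM). Its 3 genes past the filter, Mpo, Elane and Prtn3, were higher in DSS Treg (background 66.1%). The remaining pair went the other way and fell short of the filter through its values in DSS Treg. S100a9 had 1.19 and 0.449 FPKM and S100a8 had 1.08 and 0.678 FPKM. In mock and Sox12 cells the erythroid genes summed to 49.1 and 15.5 FPKM, most of it Hbb-b1. Of the 2 past the filter there, Hbb-b1 was lower (46.6 and 9.27 FPKM) and Hba-a1 higher (1.74 and 4.23 FPKM). Markers of NK and CD8 T cells were higher in Sox12 cells in 8 of 8 cases (141 and 424 FPKM). Macrophage and neutrophil genes summed to below 1 FPKM in both vector libraries, with Csf1r, S100a8, S100a9 and Elane at 0. Whether the transcripts of these lists came from other cells or from the T cells themselves was not tested, nor was their part in the results below. In bulk RNA fewer cells of a type cannot be told apart from less RNA per cell.

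In freshly purified Treg the feedback genes were dominated by Dusp2 and Dusp1, and in transduced CD4 T cells by Dusp4, Dusp2 and Dusp5. The tables were made separately, so this is an order within each library and not a test across them. FPKM is a level per length of transcript, which allows genes to be ranked. Of the summed FPKM of the 6 Dusp genes, Dusp2 and Dusp1 took 41.2% and 35.1% in untreated Treg and 41.9% and 37.2% in DSS Treg. With the mock vector Dusp4 took 37.0%, Dusp2 21.4%, Dusp5 21.0% and Dusp1 6.79%. With the Sox12 vector the same genes took 28.9%, 23.8%, 24.8% and 7.65%. The largest difference of a share within an experiment was that of Dusp4 in the vector libraries. The sum itself was 323 and 347 FPKM in untreated and DSS Treg and 249.995 and 244 FPKM in mock and Sox12 cells. These 6 genes held 78.5% and 79.6% of the FPKM of the 15 Dusp and Styx genes listed for Treg, and 69.7% and 74.8% of that of the 26 listed for the vector libraries.

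**Figure D1:**
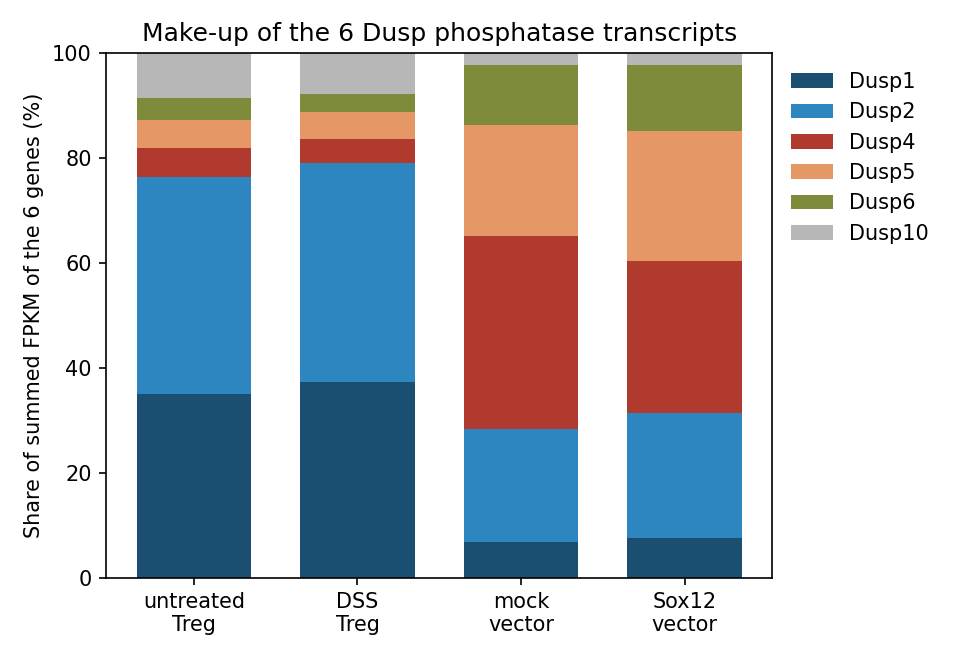
Stacked bars give the share (%) of each Dusp gene in the summed FPKM of the 6 genes, for each of the 4 libraries. Dusp1 and Dusp2 (blue) fill most of both Treg bars, and Dusp4 (red) is widest with the mock vector (37.0%) and narrower with the Sox12 vector (28.9%).

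In Treg from DSS-treated mice the feedback genes lay close to their untreated levels, apart from Rasal1. On the log2(FPKM + 1) scale, where a difference of 1 or more was counted as at least 2 times, 0 of 9 genes passed, against 0.266% of the 10545 genes whose 2 libraries averaged 1 FPKM or more (0.190% higher and 0.0759% lower). Above untreated Treg were 4 of 9 (background 66.1%) and below it 5 of 9 (background 33.9%). The median difference of the 9 was -0.03, beside 0.05 over all genes. Without Rasal1, which was selected on these values, 4 were higher and 4 lower, with a median of 0.02. The middle 90% of all genes lay between -0.20 and 0.31.

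Dusp1, a nuclear phosphatase of p38, JNK and ERK and an immediate early gene, had 113 FPKM without DSS and 129 FPKM after DSS (log2 difference 0.19). Dusp2, a nuclear phosphatase of activated lymphocytes, had 133 and 145 FPKM (0.13). Both were slightly higher in the DSS library, and both lay above at least 96.4% of genes in mean level. Dusp5, a nuclear phosphatase specific for ERK, had 16.9 and 17.8 FPKM (0.07). Dusp10, which acts on p38 and JNK, had 27.8 and 27.2 FPKM (-0.03), so its levels nearly coincided.

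Dusp4, a nuclear phosphatase induced by ERK, had 18.3 FPKM without DSS and 15.6 FPKM after DSS, a log2 difference of -0.22. Dusp6, the cytoplasmic phosphatase of ERK, had 13.5 and 11.9 FPKM, a log2 difference of -0.17. These 2 were the lowest of the Dusp members in this comparison, and 15.1% and 25.3% of all genes differed by as much or more in either direction. Spry1, a membrane-associated inhibitor of Ras activation, had 12.1 and 12.9 FPKM (0.09). Spred1, which brings the Ras inactivator neurofibromin to the membrane, had 3.72 and 3.48 FPKM (-0.07).

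Rasal1, which inactivates Ras and responds to calcium, stood apart with 13.7 FPKM without DSS and 6.86 FPKM after DSS. The ratio of the FPKM was 0.502. The authors' deposited fold change, also 0.502, is the ratio of the same values and so no separate check. Its log2 difference of -0.90 ranked 11 from the lowest among 10545 genes, and 0.370% of genes differed by as much in either direction. Rasal1 was selected on these values, so its rank and this share only describe it. In the order of levels it went from above Dusp6 and Spry1 to below both. The related Rasal3, the most abundant Ras GTPase-activating gene of the list in Treg, had 140.2 and 125 FPKM, so Rasal1 amounted to 0.0975 of Rasal3 in untreated and 0.0549 in DSS Treg. This ratio within a library does not depend on the scaling between libraries, but it uses the same selected values of Rasal1 and is also only a description. In the same DSS library the erythroid and basophil sums given above were higher, and the NK and CD8 T cell sum was lower.

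**Figure D2:**
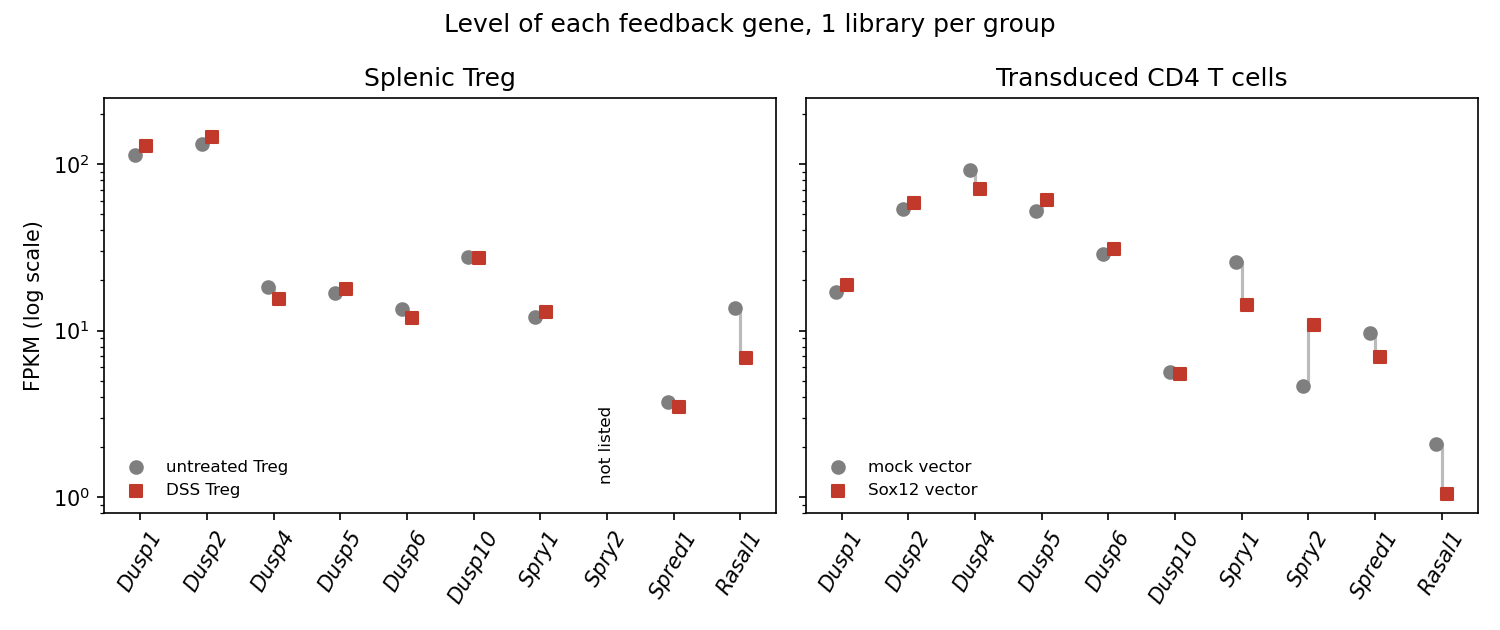
Points give the FPKM (log axis) of 9 genes in the 2 Treg libraries (left, without Spry2) and of 10 genes in the 2 vector libraries (right), with 1 library per point. Rasal1 is the gene with the widest gap in Treg (13.7 and 6.86 FPKM), and Spry2 the widest in the vector experiment (4.66 and 10.7 FPKM).

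With the Sox12 vector the Sprouty genes went opposite ways, Spry2 higher and Spry1 lower, while Dusp1, Dusp2, Dusp5, Dusp6 and Dusp10 had FPKM ratios of 0.976 to 1.15. By the same size rule 1 of 10 genes, Spry2, was at least 2 times higher, against 4.85% of 10822 genes. At least 2 times lower were 0 of 10, against 1.91%, which makes 6.76% of all genes in either direction. Higher than with the mock vector were 5 of 10 (background 48.9%) and lower 5 of 10 (background 51.1%). The median difference of the 10 was 0.03, beside -0.01 over all genes, and the middle 90% of all genes lay between -0.68 and 0.98.

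Low values of this table gave an approximate depth, about 42.6 fragments per FPKM and kilobase for mock cells and 45.3 for Sox12 cells. From these and the length of the longest coding transcript, each ratio below has a 95% interval that covers counting error alone, not the difference between cultures or preparations.

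Spry2, a feedback inhibitor that ERK signalling induces, had 4.66 FPKM in mock cells and 10.7 FPKM in Sox12 cells, a ratio of 2.31 (interval 2.06 to 2.59). Its log2 difference of 1.05 ranked 479 from the highest, and 6.07% of genes differed by as much in either direction. With a pseudocount of 5 FPKM the difference was 0.70 and no longer reached 1. Spry1 had 26.0 and 14.2 FPKM, a ratio of 0.548 (interval 0.517 to 0.581) and a log2 difference of -0.82. Spry2 amounted to 0.179 of Spry1 with the mock vector and 0.755 with the Sox12 vector, so the ratio of the pair was 4.21 times higher. Spry1 remained the more abundant of both in each library. Of the other Sprouty genes, Spry4 was low at 0.602 and 1.10 FPKM and Spry3 was listed at 0. NK and CD8 T cell genes were higher in the same library, as given above.

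Dusp4 was the most abundant member in both vector libraries, with 92.4 FPKM in mock cells and 70.8 FPKM in Sox12 cells. The ratio was 0.766 (interval 0.744 to 0.788) and the log2 difference -0.38, a size that 30.2% of all genes reached. It amounted to 1.72 times Dusp2 with the mock vector and 1.22 times with the Sox12 vector. Dusp4 was also lower in DSS Treg (log2 difference -0.22). The genes were chosen with results of both experiments known, so the shared direction is not support for either value.

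The other Dusp genes differed less. Dusp5 had 52.6 FPKM in mock cells and 60.6 FPKM in Sox12 cells (ratio 1.15, interval 1.11 to 1.19). Dusp2 had 53.6 and 58.1 FPKM (1.08, interval 1.04 to 1.13). The order of Dusp2 and Dusp5 turned between the libraries, but their counting intervals overlapped in each, 51.9 to 55.4 and 51.2 to 54.0 FPKM with the mock vector and 56.4 to 59.9 and 59.2 to 62.1 FPKM with the Sox12 vector. Dusp1 had 17.0 and 18.7 FPKM (1.10, interval 1.02 to 1.18), and Dusp6 had 28.8 and 30.8 FPKM (1.07, interval 1.02 to 1.12). Dusp10 had 5.63 and 5.49 FPKM (0.976, interval 0.876 to 1.09), an interval that holds 1, and its log2 difference of -0.03 became 0.02 when totals without the 20 highest genes were made equal.

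Spred1 had 9.63 FPKM in mock cells and 6.91 FPKM in Sox12 cells, a ratio of 0.717 (interval 0.675 to 0.762) and a log2 difference of -0.43. Its relative Spred2 had 12.2 and 8.76 FPKM, a log2 difference of -0.44, so Spred1 amounted to 0.788 of Spred2 with the mock vector and 0.789 with the Sox12 vector. Spred2 nearly coincided in the Treg libraries, at 7.94 and 8.10 FPKM. Rasal1 was the lowest member at 2.07 and 1.04 FPKM, which rested on about 287 and 153 fragments. The ratio of its FPKM was 0.502 (interval 0.410 to 0.613), and the log2 difference of -0.59 understates it at this level. It amounted to 0.0492 of Rasal3 with the mock vector and 0.0280 with the Sox12 vector. The FPKM ratio in the Treg libraries, on which Rasal1 was selected, is not support for this value.

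**Figure D3:**
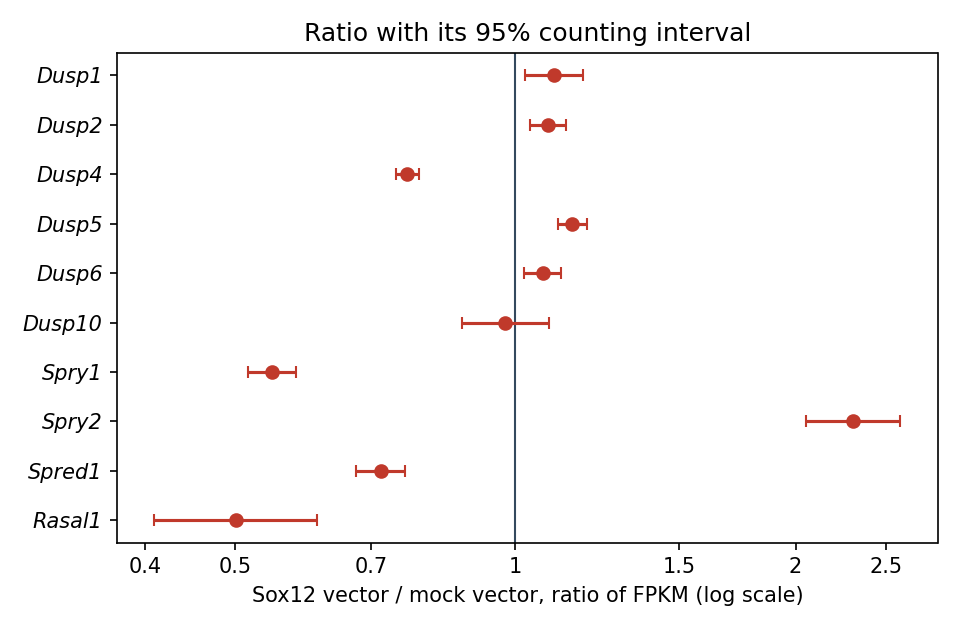
Points give the ratio of FPKM, Sox12 vector to mock vector (log axis), for each gene, with bars for the 95% counting interval. Spry2 lies at 2.31, Spry1 and Rasal1 near 0.548 and 0.502, and the interval of Dusp10 includes 1.

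**Figure D4:**
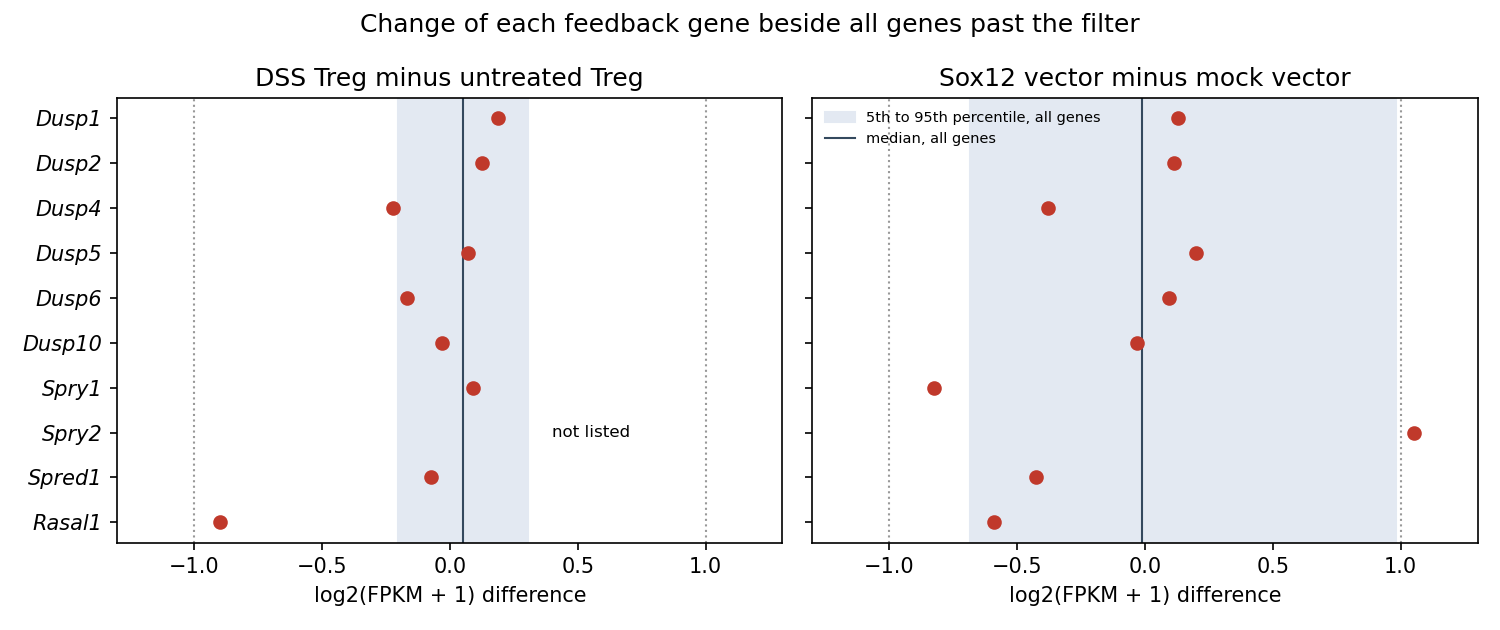
Points give the difference of each gene on the log2(FPKM + 1) scale for DSS minus untreated Treg (left) and Sox12 minus mock vector (right). The shaded band holds the middle 90% of all genes past the filter, and dotted lines mark a difference of 1. Rasal1 and, narrowly, Dusp4 lie outside the band on the left, and Spry1 and Spry2 on the right.

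The other Dusp and Styx genes, which include further MAP kinase phosphatases and atypical members of the family, were lower with the Sox12 vector. All 10 of the 20 listed genes that passed the filter were lower (background 51.1%), with a median log2 difference of -0.35. On the log2(FPKM + 1) scale 0 of them reached -1 (background 1.91%). Dusp14, which dampens T cell receptor signalling, had 17.9 FPKM in mock cells and 8.48 FPKM in Sox12 cells (-0.99), an FPKM ratio of 0.474. Its difference passed -1 with a pseudocount of 0.1 FPKM (-1.07) and with equal 75th percentiles (-1.02). Dusp11, an RNA phosphatase and the most abundant of them, had 36.8 and 33.8 FPKM (-0.12). Chosen after their values were seen, Dusp22 had 9.998 and 6.002 FPKM (-0.65) and Dusp7, a cytoplasmic phosphatase of ERK, had 9.59 and 6.11 FPKM (-0.57). In the DSS comparison 6 of 9 of these genes were higher (background 66.1%) and 3 lower, with a median of 0.04. Dusp11 had 48.5 and 46.9 FPKM there, and Dusp7 had 12.3 and 12.5 FPKM.

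Of 17 genes known to respond to ERK signalling, 14 of the 16 past the filter were lower with the Sox12 vector (background 51.1%). Their median was -0.31, and 0 genes passed a difference of 1 on the log2(FPKM + 1) scale (background 6.76%). Nr4a1, an immediate early nuclear receptor, had 161 FPKM in mock cells and 140.1 FPKM in Sox12 cells. Myc, the growth-promoting transcription factor, was higher at 145 and 153 FPKM. Other values, chosen after they were seen, were those of Fos (10.7 and 5.43 FPKM), Phlda1 (21.4 and 11.1 FPKM), Lif (66.8 and 36.8 FPKM) and Etv5 (5.73 and 2.86 FPKM, a ratio of 0.499). Of the members described above as induced by ERK, Spry2 was higher and Dusp4 lower in the same library. In DSS Treg 9 of 14 of these genes were lower (background 33.9%) and 5 higher (median -0.06), with Fos at 95.7 and 97.1 FPKM and Ier2 at 74.9 and 74.9 FPKM. Plaur, the urokinase receptor, chosen after its values were seen, was the most above untreated Treg at 0.369 and 1.69 FPKM (0.97). It passed the filter only through its value in DSS Treg, so its direction describes the filter in part. Lif (1.27 and 0.853 FPKM) passed only through untreated Treg, and Ier3 (0.420 and 1.37 FPKM) did not pass. Fos, Ier2 and Dusp7 turned to slightly lower in DSS Treg under each of the 3 other scalings.

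Regulators of Ras varied in both directions. Among 7 other Ras GTPase-activating genes past the filter in the vector experiment, 3 were higher (background 48.9%) and 4 lower (background 51.1%). Of these 7, 2 were higher by at least 1 on the log2(FPKM + 1) scale (background 4.85%). Dab2ip had 1.61 FPKM in mock cells and 6.51 FPKM in Sox12 cells (log2 difference 1.52), and Rasa3 had 17.95 and 40.7 FPKM (1.14). Both went opposite to Rasal1. Of 10 Ras and exchange factor genes 6 were higher (background 48.9%) and 4 lower, with a median of 0.31, which was 0.13 without the filter and 0.17 with a pseudocount of 5 FPKM. Rasgrp2, an exchange factor that activates Rap1, had 4.86 and 13.7 FPKM (1.32). With a pseudocount of 5 FPKM these 3 genes no longer reached 1.

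Among the kinases 0 genes of either list reached a difference of 1 on the log2(FPKM + 1) scale between mock and Sox12 cells (background 6.76%). The nearest was the JNK gene Mapk8, named after its values were seen, with 5.29 and 10.7 FPKM (log2 difference 0.89, FPKM ratio 2.02). Of 13 Raf, MEK and ERK genes 5 were higher and 8 lower (median -0.14), against 48.9% and 51.1% of all genes (median -0.01). The ERK-activated kinase Rps6ka1 had 72.6 FPKM in mock cells and 88.2 FPKM in Sox12 cells. Of 12 JNK and p38 genes 8 were higher and 4 lower (median 0.11, the same background). Of the p38-activated kinases, Mapkapk2 had 94.9 and 121 FPKM and Mapkapk3 52.8 and 44.1 FPKM. Of the tyrosine phosphatases that bind MAP kinases, Ptpn7 had 71.8 and 70.3 FPKM and Ptpn5 11.7 and 7.56 FPKM.

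In the DSS comparison 0 genes of these upstream lists reached a difference of 1 on the log2(FPKM + 1) scale (background 0.266%). The 5 Ras GTPase-activating genes past the filter besides Rasal1 were all lower (background 33.9%), yet by little, with a median of -0.04 and Rasa3 at 98.4 and 95.5 FPKM. The T cell exchange factors Rasgrp1 and Rasgrp2 had 81.4 and 71.9 FPKM and 100.4 and 89.2 FPKM in untreated and DSS Treg. Of 13 Raf, MEK and ERK genes 9 were higher and 4 lower (median 0.05), near the background of 66.1% higher with a median of 0.05, with Rps6ka1 at 71.1 and 75.1 FPKM and Lamtor2, a subunit of a scaffold for MEK and ERK, at 79.0 and 77.7 FPKM. Of 12 JNK and p38 genes 10 were higher and 2 lower (median 0.06, the same background), with p38 alpha (Mapk14) at 46.6 and 48.4 FPKM and Mapkapk2 at 38.5 and 40.8 FPKM. Ptpn7 had 53.7 and 60.3 FPKM and Ptpn5 1.99 and 2.14 FPKM.

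**Figure D5:**
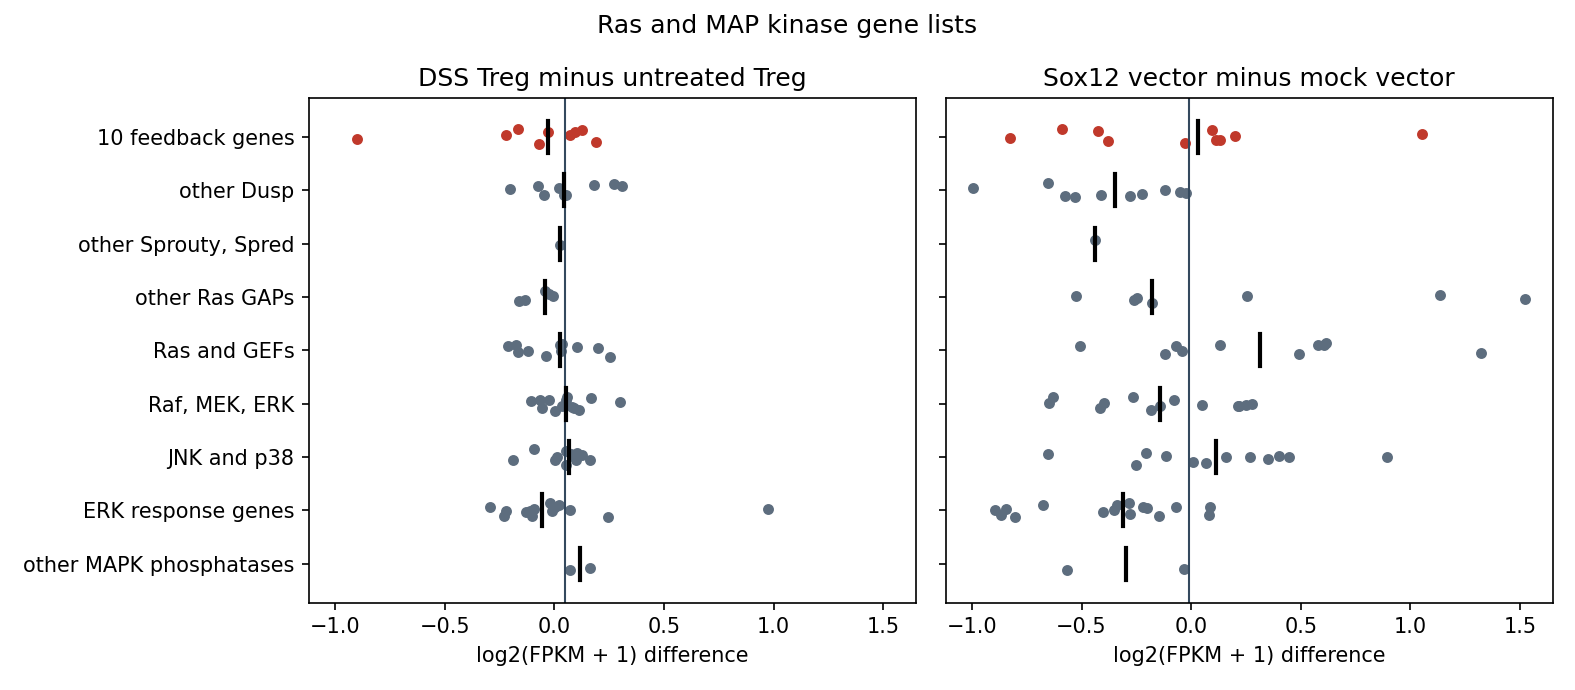
Each point is a gene past the filter, placed by its difference on the log2(FPKM + 1) scale, for the feedback genes (red) and 8 lists of related genes (grey); GAPs are GTPase-activating genes and GEFs exchange factors. Short black bars are list medians and the vertical line the median of all genes. The other Dusp genes (median -0.35) and ERK response genes (-0.31) lie mostly left of the line on the right-hand panel.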

How the data were processed

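Strand-specific RNA sequencing libraries (SureSelect kit, per the labels' protocols) were quantified per gene with Cufflinks on mm9, per the submitters' processing notes. No source used here names the aligner or any version. The deposited DSS table holds FPKM and a fold change, the ratio of the 2 FPKM. The deposited vector table holds log2(FPKM + 1), which the authors subtracted to a log2 fold change. It was turned back to FPKM here.

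Libraries were grouped by title and columns matched by name. Rows whose symbol a spreadsheet had turned into a date were left out (16 and 25). A difference is that of log2(FPKM + 1) within a table, which understates low genes. The filter kept genes that averaged 1 FPKM or more over both libraries. No test was run, since each group is 1 library. The members and gene lists were chosen with earlier results of these data known. Named were all members, list genes past a difference of 1 (at most 6 a list) or else the 2 most abundant, and Sox12 and Foxp3. A gene that this rule takes is not reported here.

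Fragments per FPKM were read from low values of 314 and 339 genes with a single transcript in GENCODE vM21, as the most frequent value (18 and 20 genes), so the depth of the vector libraries is approximate. It sets exact Poisson intervals for levels and exact binomial intervals for ratios. The absolute depth of the Treg libraries is unknown. The size rule was tried only on simulated counts with counting noise and planted differences larger than those of the members here. That trial says nothing about smaller differences or variation between cultures. Alternatives were other pseudocounts, filters and scalings. Python 3.11.15, numpy, pandas and scipy were used.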

Additional observations from a re-analysis of the deposited data

How the results depend on the processing

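Of the 10 genes, none changed sign in either experiment under the 7 alternatives except Dusp10 in the vector experiment, given above. In the DSS comparison 0 members reached a difference of 1 under any of them. The median of the members there was 0.02 when an average of 5 FPKM or more was required, which leaves out Spred1, against -0.03. In the vector experiment the count of members at least 2 times higher was 1 and became 0 with a pseudocount of 5 FPKM, by the loss of Spry2. The difference of Spry1 was then -0.69 and that of Rasal1 -0.23, while with a pseudocount of 0.1 FPKM Rasal1 had -0.93 and Spry2 1.19. The pseudocount acts most on low values by its construction.

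The background counts depended on the settings. Genes at least 2 times higher and lower in DSS Treg were 20 and 8. They were 39 and 20 with a pseudocount of 0.1 FPKM, 6 and 3 with a pseudocount of 5 FPKM, and 8 and 2 when an average of 5 FPKM or more was required. In the vector experiment they were 525 and 207. They were 222 and 94 with a pseudocount of 5 FPKM, 335 were lower with a pseudocount of 0.1 FPKM, and 322 were higher when an average of 5 FPKM or more was required. The median of the other Ras GTPase-activating genes turned from -0.18 to 0.04 under that filter, and that of the other Dusp genes was -0.12 without a filter and -0.22 with a pseudocount of 5 FPKM. The counts and median without Rasal1, chosen after seeing the data, are given above for Treg, and in the vector experiment they were 5 higher and 4 lower with a median of 0.09. No paired analysis was possible because each group has 1 library.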
